A study of Sus scrofa with 5 samples.

Results

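Interferon-stimulated genes were measured in porcine blastoids and in the porcine embryonic stem cells (pESCs) from which blastoids are made. The 9 genes described here are *ISG15*, *IFI6*, *ISG12(A)*, *IFITM3*, *IFI44*, *MX1*, *MX2*, *IRF7* and *IRF9*, out of 30029 genes in the count files. They were listed by name, with their share of positive cells, their co-detection and their levels in these libraries already known, so these quantities are described here without a test. The blastoids were blastocyst-like structures cultured from pESCs in iBlastoid medium, collected at day 6, picked by hand for a cavity and for compartments like the inner cell mass and the trophectoderm, and sequenced as 2 libraries of 10x Genomics single-cell RNA-seq. The pESCs were grown in 4FIXY medium on mitomycin C-treated mouse embryonic fibroblasts and sequenced as 3 bulk RNA-seq libraries. Cells given interferon were not analysed here. The blastoid libraries share 1 set of labels, which names no separate cultures, so the spread between them may be technical. The labels call the pESC samples pESC-1, pESC-2 and pESC-3, each as a cell line of its own. The bulk data name the libraries IVFP25, PAP25 and PA_4P7, names that differ in the prefix IVF or PA and in the ending P25 or P7 and could not be matched to the labels. A mean over these 3 libraries therefore runs over samples that may differ in more than replication.

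Interferons are secreted proteins that bind receptors on the cell surface, and those of types I and III act through the kinases JAK1 and TYK2. In the response to type I and type III interferons, IRF9 is the DNA-binding part of a complex that binds the interferon-stimulated response element in promoters, and IRF7 is itself induced and switches on interferon genes. The products act against viruses: ISG15 is a ubiquitin-like protein joined to other proteins, MX1 and MX2 are dynamin-like GTPases, and IFITM3 sits in membranes and hinders viral entry. Pluripotent cells are known to respond weakly to interferon, and in the pig the trophectoderm secretes interferons around implantation.

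Cells were barcodes with at least 11223 unique molecular identifiers (UMIs, the tags that mark single captured RNA molecules) in library 1 and at least 9805 in library 2, which gave 7369 and 8175 cells with a median of 29728 and 27588 UMIs. Only 9 cell barcodes occurred in both libraries. A cell was put in a gate when it had at least 3 UMIs of exactly 1 of *POU5F1*, *GABRP*, *TP63* and *COL3A1*, and the gates are called by these genes. They held 855 and 1330 cells for POU5F1 (libraries 1 and 2), 1157 and 1314 for GABRP, 693 and 623 for TP63, and 570 and 451 for COL3A1. A further 2127 and 2538 cells fell in no gate and 1967 and 1919 in several, the latter mostly with both GABRP and TP63. The median UMI count of the POU5F1 gate was 38135 and 34458, against 22105 and 19517 in the COL3A1 gate. The summed pluripotency genes *SOX2*, *DNMT3B* and *UTF1* were highest in the POU5F1 gate (341 and 409.7 UMIs per 1000000 of the sum, CPM) and the collagen genes and *TWIST1* in the COL3A1 gate (2449 and 2413 CPM). *GATA3*, *TAC3* and *TFAP2A* summed to 639 and 605 CPM in the GABRP gate and to 489 and 473 CPM in the TP63 gate, where *KRT5* was near 0, so these gates are not named as cell types. The same genes summed to 333 and 303 CPM in the POU5F1 gate and to 94.3 and 84.6 CPM in the COL3A1 gate. The POU5F1 gate is therefore not taken as pluripotent cells alone. Blood cell markers (*PTPRC*, *CSF1R*, *CD14*, *SPI1* and *TYROBP*) summed to 2.99 to 6.46 CPM over the 4 gates, of which most was *SPI1*.

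The genes lie on 4 chromosomes of susScr11. *ISG15* (chr6:63363201-63364211 on the plus strand, 2 exons), *IFI6* (chr6:84852782-84858025 on the minus strand, 5 exons) and *IFI44* (chr6:134634679-134649857 on the minus strand, 8 exons) lie on the same chromosome. *IFITM3* (chr2:128658-129736 on the minus strand, 2 exons) and *IRF7* (chr2:372264-374958 on the minus strand, 8 exons) lie near the start of chromosome 2. *MX2* (chr13:204798633-204821612 on the plus strand, 8 exons) and *MX1* (chr13:204843049-204868927 on the plus strand, 17 exons) are neighbours on chromosome 13, and *ISG12(A)* (chr7:115356619-115361537 on the plus strand, 6 exons) and *IRF9* (chr7:75133800-75139641 on the minus strand, 9 exons) lie on chromosome 7. The 250 bases before each RefSeq transcript start were searched on both strands for GAAA, any 2 bases and GAAA, the core of the interferon-stimulated response element, and for TTCNNNGAA, a STAT site. The first occurred in 5 of the 9 windows, against 587 of 19534 windows of all genes (3.01%). The second occurred in 1, that of *IRF9*, against 6.02% of all windows. The 5 windows with the first motif are shown since their genes include the 4 with the most UMIs. They read 5′ to 3′ on the strand of the gene, from RefSeq's Sscrofa11.1 (susScr11), with the matches in capitals. A match is a description of letters and not a binding site.
ISG15, chr6:63362951-63363200: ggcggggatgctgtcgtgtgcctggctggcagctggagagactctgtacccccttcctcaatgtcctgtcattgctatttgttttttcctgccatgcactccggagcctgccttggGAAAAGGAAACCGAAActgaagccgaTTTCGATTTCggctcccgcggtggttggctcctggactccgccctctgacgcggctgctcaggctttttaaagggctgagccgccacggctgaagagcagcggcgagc
IFI6, chr6:84858026-84858275: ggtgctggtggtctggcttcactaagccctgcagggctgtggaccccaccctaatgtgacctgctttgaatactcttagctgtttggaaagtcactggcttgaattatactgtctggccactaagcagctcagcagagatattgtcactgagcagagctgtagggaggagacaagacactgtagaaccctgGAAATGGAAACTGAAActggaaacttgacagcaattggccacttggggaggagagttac
IFITM3, chr2:129737-129986: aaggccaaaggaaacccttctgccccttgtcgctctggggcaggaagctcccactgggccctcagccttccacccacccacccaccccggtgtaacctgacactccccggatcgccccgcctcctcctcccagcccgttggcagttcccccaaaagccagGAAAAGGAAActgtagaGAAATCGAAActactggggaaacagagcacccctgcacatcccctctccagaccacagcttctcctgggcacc
ISG12(A), chr7:115356369-115356618: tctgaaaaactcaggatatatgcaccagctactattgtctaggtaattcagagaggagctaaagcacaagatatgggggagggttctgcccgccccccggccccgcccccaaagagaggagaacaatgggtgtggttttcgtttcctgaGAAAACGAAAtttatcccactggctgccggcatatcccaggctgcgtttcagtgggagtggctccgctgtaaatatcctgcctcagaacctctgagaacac
IRF7, chr2:374959-375208: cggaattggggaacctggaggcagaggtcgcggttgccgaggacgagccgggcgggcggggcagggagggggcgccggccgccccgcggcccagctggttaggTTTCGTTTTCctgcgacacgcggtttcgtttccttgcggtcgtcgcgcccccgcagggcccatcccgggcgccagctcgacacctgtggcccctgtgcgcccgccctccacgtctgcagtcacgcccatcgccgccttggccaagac

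In *ISG15* there were 3 matches, of which the first overlap by 4 bases and the last lies on the other strand. The nearest match to the start lay 44 bases before it in *IFI6* and 64 bases before it in *IFITM3*, the last base of each being counted. *ISG12(A)* and *IRF7* had 1 match each, and that of *IRF7* was on the other strand. No match of either motif was found in the windows of *IFI44*, *MX1* and *MX2*, which says only that these letters are not in these 250 bases.

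All 9 genes were lower in cells of the POU5F1 gate than in cells of the GABRP and TP63 gates, in both libraries and with no overlap. Over all genes with at least 10 UMIs in the gates, 18.8% had this pattern, and since the genes were listed with their levels known nothing is read from the count. Without overlap of the libraries, 4 genes were higher in the COL3A1 gate than in the POU5F1 gate (29.9% of all genes were) and 2 were lower (45.3% of all genes were), and the other 3 overlapped. Summed over the 9 genes, the level was 140.3 and 168 CPM in the POU5F1 gate, 459 and 466 CPM in the GABRP gate, 421 and 399 CPM in the TP63 gate and 224 and 207 CPM in the COL3A1 gate, and 298 and 289 CPM in cells of no gate. Levels are CPM of the summed counts of a gate and are compared between gates, not between genes.

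*ISG15* stood at 37.3 and 48.7 CPM in the POU5F1 gate of libraries 1 and 2, 167 and 161 CPM in the GABRP gate, 155 and 152 CPM in the TP63 gate and 85.6 and 81.03 CPM in the COL3A1 gate. The libraries lay within a few CPM of each other in each gate but POU5F1, and the gates did not overlap. The mean of the other 3 gates was 3.65 times the POU5F1 level in library 1 and 2.70 times in library 2, a ratio of POU5F1 to the others of 0.323 ± 0.0683 (SD, n = 2 libraries). *IFI6* stood at 41.99 and 46.5 CPM in the POU5F1 gate of libraries 1 and 2, 127 and 133 CPM in the GABRP gate, 118 and 108 CPM in the TP63 gate and 44.5 and 33.97 CPM in the COL3A1 gate. The product of this gene is a mitochondrial protein that limits cell death. Its POU5F1 and COL3A1 gates overlapped, while the GABRP gate stood above the TP63 gate and both above the rest.

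*ISG12(A)* stood at 29.7 and 39.9 CPM in the POU5F1 gate of libraries 1 and 2, 73.5 and 84.2 CPM in the GABRP gate, 67.9 and 55.3 CPM in the TP63 gate and 22.5 and 22.4 CPM in the COL3A1 gate. It codes for a member of the same small family of hydrophobic proteins as *IFI6*. The order was GABRP, TP63, POU5F1 and COL3A1, with no overlap between neighbours, and the COL3A1 gate was the lowest in each library. *IFITM3* stood at 18.7 and 20.5 CPM in the POU5F1 gate of libraries 1 and 2, 59.00 and 56.4 CPM in the GABRP gate, 52.2 and 51.98 CPM in the TP63 gate and 54.5 and 53.9 CPM in the COL3A1 gate. No gates overlapped, the COL3A1 gate lay between the GABRP and TP63 gates, and the POU5F1 gate was at 0.359 ± 0.0285 of the mean of the others (SD, n = 2). *IFITM3* belongs to a family of similar genes, and whether they share reads was not tested, so its counts are given as uncertain.

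*MX1* stood at 2.00 and 1.76 CPM in the POU5F1 gate of libraries 1 and 2, 5.53 and 6.14 CPM in the GABRP gate, 6.29 and 7.67 CPM in the TP63 gate and 2.42 and 1.56 CPM in the COL3A1 gate. The TP63 gate was the highest, the GABRP gate next, and POU5F1 and COL3A1 overlapped. *MX2* was sparse: the POU5F1 gate held 2 and 12 UMIs in all, the GABRP gate 24 and 18, the TP63 gate 11 and 22, and the COL3A1 gate 1 and 0. Its GABRP and TP63 gates overlapped, and so did its POU5F1 and COL3A1 gates. *IFI44*, whose product is cytoplasmic and interferon-induced, stood at 0.428 and 0.368 CPM in the POU5F1 gate, 1.71 and 2.06 CPM in the GABRP gate, 1.53 and 2.26 CPM in the TP63 gate and 0.641 and 1.66 CPM in the COL3A1 gate, which rests on 9 and 16 UMIs in the last.

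Of the transcription factors, *IRF7* stood at 4.68 and 5.17 CPM in the POU5F1 gate of libraries 1 and 2, 10.5 and 10.2 CPM in the GABRP gate, 7.53 and 8.23 CPM in the TP63 gate and 2.78 and 1.97 CPM in the COL3A1 gate. The order was GABRP, TP63, POU5F1 and COL3A1 without overlap, so for this gene, as for *ISG12(A)*, the POU5F1 gate was not the lowest. *IRF9* stood at 5.42 and 5.31 CPM in the POU5F1 gate of libraries 1 and 2, 13.6 and 12.5 CPM in the GABRP gate, 11.2 and 12.9 CPM in the TP63 gate and 10.7 and 9.97 CPM in the COL3A1 gate. The GABRP and TP63 gates overlapped, and the POU5F1 gate was at 0.454 ± 0.00488 of the mean of the others (SD, n = 2), the closest agreement between libraries among the 9 genes. The lowest gate was POU5F1 in both libraries for 4 genes and COL3A1 in both for 2, and the highest was GABRP in both for 5 and TP63 in both for 1. For the remaining genes the libraries differed in the lowest or highest gate. The share of all genes with such orders was not counted, and the 9 genes were listed with these levels known. Nothing is therefore read from these counts.

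**Figure D1:**
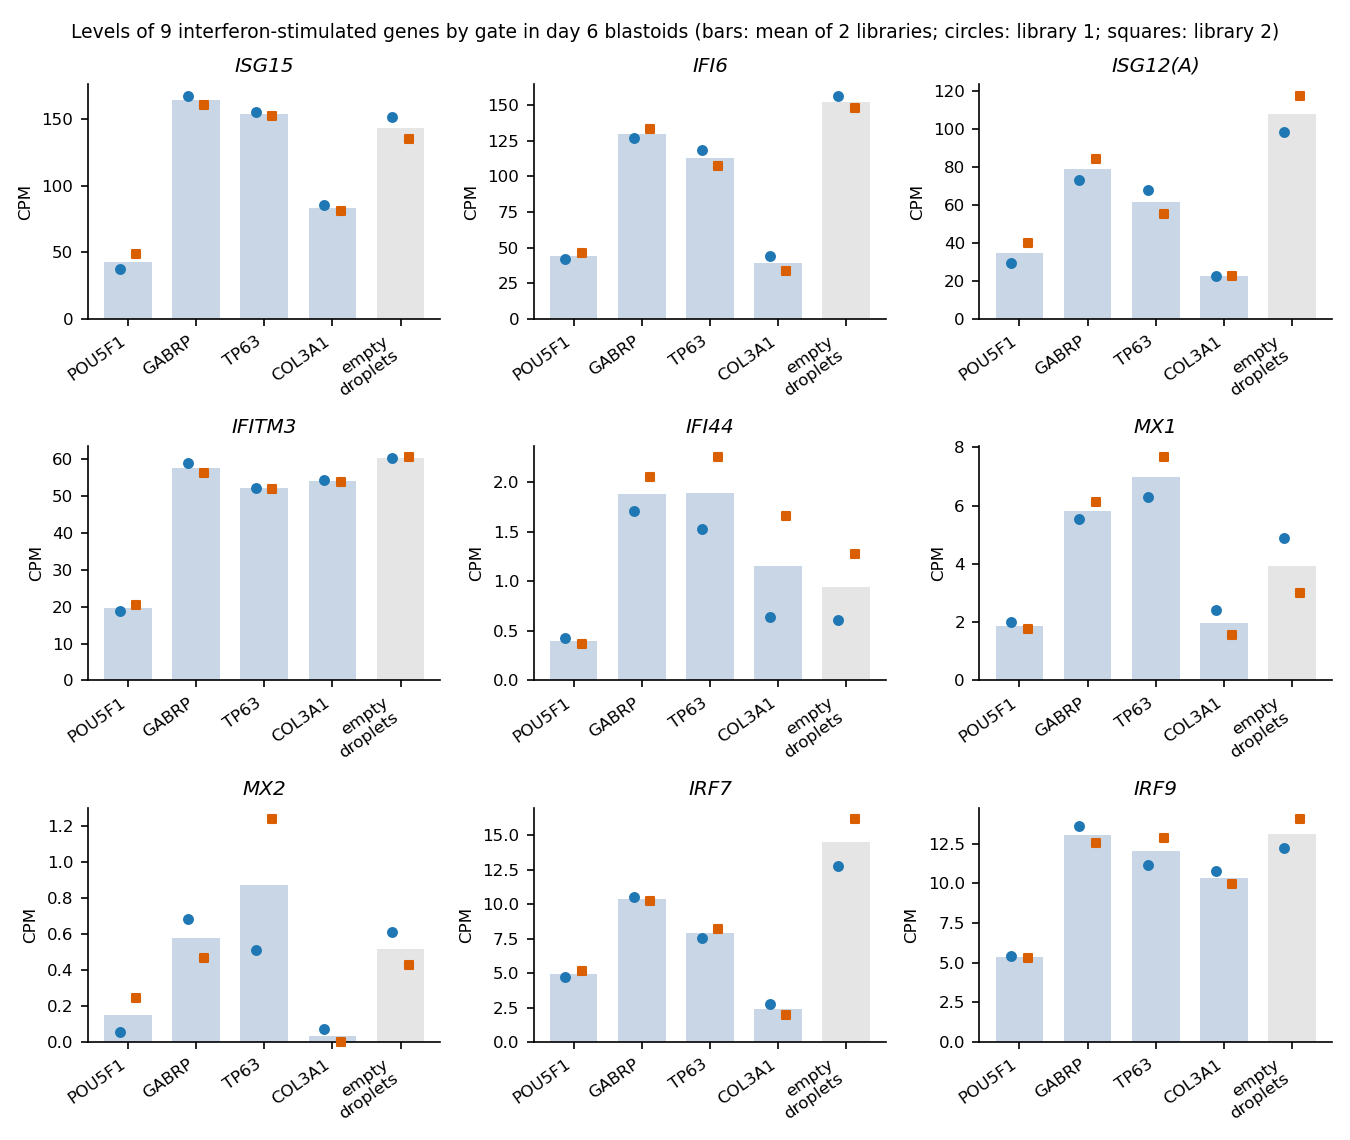
Levels of the 9 genes in CPM of summed counts (vertical axes, each from 0) for cells of the 4 gates and for empty droplets (horizontal axes), with circles for library 1, squares for library 2 and bars for their mean. The POU5F1 bar is below the GABRP and TP63 bars in every panel. Empty droplets pass the GABRP level for *IFI6*, *ISG12(A)*, *IRF7* and *IFITM3* in both libraries and for *IRF9* in library 2 only.

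RNA outside cells carried the same genes. Barcodes of 10 to 100 UMIs, taken as empty droplets, held *ISG15* at 151 and 135 CPM, *IFI6* at 157 and 148 CPM, *ISG12(A)* at 98.8 and 118 CPM and *IFITM3* at 60.4 and 60.6 CPM, and the 9 genes together at 498 and 496 CPM. These levels are above those over all cells (338 and 334 CPM). The empty droplets held 817 and 1163 UMIs of the 9 genes in all, of which *IFI44*, *MX1* and *MX2* had 1 to 8 UMIs each in a library. The part of free RNA in cells with 1 or a few UMIs was not tested, and no cell type known to lack these genes could serve as a blank.

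A UMI of *IFI6* was found in 55.4% (exact 95% binomial interval 54.3% to 56.6%) of cells in library 1 and 54.8% (exact 95% binomial interval 53.7% to 55.9%) in library 2. For *ISG12(A)* the share was 39.1% and 42.1%, for *ISG15* 33.1% and 31.6% and for *IFITM3* 28.6% and 27.1%, in libraries 1 and 2. The factors were found in fewer cells, *IRF7* in 17.8% and 16.9% and *IRF9* in 16.9% and 15.2%. *MX1* was found in 7.17% and 6.68%, *IFI44* in 3.16% and 2.90% and *MX2* in 1.00% and 0.966%. These shares rise with depth, and intervals cover counting error only. With every cell thinned to 9805 UMIs they fell to 27.1% and 27.2% for *IFI6*, 18.3% and 21.04% for *ISG12(A)* and 18.04% and 16.97% for *ISG15*.

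*IFI6* was found in 70.9% and 65.6% of cells in the POU5F1 gate and in 52.2% and 49.5% of those in the GABRP gate. At 9805 UMIs per cell the shares were 30.9% and 31.1% in the POU5F1 gate and 26.9% and 26.3% in the GABRP gate. Cells with at least 5 UMIs of *IFI6* at that depth made up 0.351% and 0.526% of the POU5F1 gate and 6.14% and 5.40% of the GABRP gate. For *ISG12(A)*, cells with 5 UMIs or more made up 0.234% and 0.827% of the POU5F1 gate and 4.41% and 5.18% of the GABRP gate. For *ISG15*, 1.87% and 2.41% of the POU5F1 gate, 8.73% and 8.83% of the GABRP gate, 7.79% and 7.54% of the TP63 gate and 2.81% and 4.21% of the COL3A1 gate had 5 UMIs or more. No order of gates is read from the shares of cells with at least 1 UMI, since empty droplets held *IFI6* too.

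Most UMIs of these genes came from few cells. The 1% of cells with the most *ISG15* held 29.6% and 33.8% of its UMIs in libraries 1 and 2, and the top 5% held 76.99% and 80.5%, with up to 229 and 430 UMIs in a cell against a median of 0. The top 5% held 70.4% and 68.99% of *IFI6*, 71.1% and 66.4% of *ISG12(A)* and 70.96% and 71.9% of *IFITM3*. The factors were spread more widely, with 48.5% and 49.3% of *IRF7* and 59.2% and 62.1% of *IRF9* in the top 5%. The most UMIs of *MX1* in a cell were 22 and 17.

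With every cell at 9805 UMIs, the UMIs of the 9 genes were added up in each cell. The limits used from here were set after these sums were seen and describe ranges, not cell types. The sum was 10 or more in 463 of 7369 cells in library 1 (6.28%, exact 95% binomial interval 5.74% to 6.86%) and 501 of 8175 in library 2 (6.13%, 5.62% to 6.67%), and these cells held 74.9% and 74.4% of all UMIs of the 9 genes. Within 2 UMIs of the limit lay 77 and 91 cells. The share of cells at 10 or more was lowest in the POU5F1 gate, with 14 of 855 cells in library 1 (1.64%, exact 95% binomial interval 0.898% to 2.73%) and 25 of 1330 in library 2 (1.88%, 1.22% to 2.76%). In that gate 2 and 9 cells lay within 2 UMIs of the limit, beside 14 and 25 at or above it, so its share and the make-up of its cells rest on few cells. It was 104 of 1157 cells in library 1 (8.99%, exact 95% binomial interval 7.40% to 10.8%) and 119 of 1314 in library 2 (9.06%, 7.56% to 10.7%) for the GABRP gate. It was 54 of 693 cells in library 1 (7.79%, exact 95% binomial interval 5.91% to 10.05%) and 49 of 623 in library 2 (7.87%, 5.88% to 10.3%) for the TP63 gate. For the COL3A1 gate it was 20 of 570 cells in library 1 (3.51%, exact 95% binomial interval 2.16% to 5.37%) and 18 of 451 in library 2 (3.99%, 2.38% to 6.23%). The intervals of POU5F1 and COL3A1 overlapped in each library. The genes were listed with their levels in these gates known, and the limit was set after the sums were seen. The intervals are therefore not read as a comparison of gates. Cells of 1 library share their source, so these intervals do not cover the spread between cultures.

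**Figure D2:**
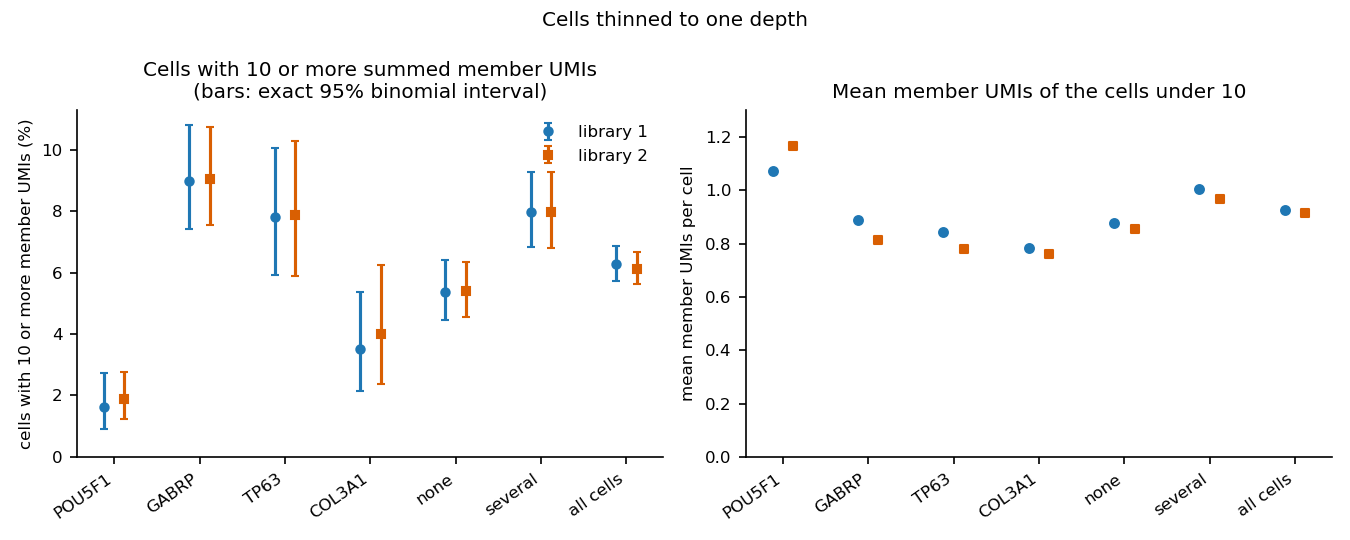
Left, percent of cells with 10 or more summed UMIs of the 9 genes by gate, cells thinned to 9805 UMIs, with exact 95% binomial intervals; right, mean summed UMIs per cell of the cells under 10. Circles are library 1 and squares library 2. The share of cells at 10 or more is 1.64% and 1.88% in the POU5F1 gate and 8.99% and 9.06% in the GABRP gate, while the means of the other cells lie between 0.762 and 1.17 in the 4 gates.

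In the cells under 10, the mean was 1.07 and 1.17 UMIs of the 9 genes per cell in the POU5F1 gate, 0.888 and 0.813 in the GABRP gate, 0.845 and 0.779 in the TP63 gate and 0.782 and 0.762 in the COL3A1 gate. The split was made on the same genes, so these means are capped by the limit. In the cells under 10, *IFI6* stood at 40.6 and 38.3 CPM in the POU5F1 gate, 26.1 and 24.9 CPM in the GABRP gate, 30.8 and 26.8 CPM in the TP63 gate and 13.4 and 6.60 CPM in the COL3A1 gate. *IFITM3* stood at 33.6 and 35.8 CPM in the COL3A1 gate and at 15.4 and 14.9 CPM, 12.4 and 10.2 CPM and 9.10 and 8.53 CPM in the POU5F1, GABRP and TP63 gates. These levels correspond to less than 1 UMI of a gene per cell and to less than the level of empty droplets, so no order of gates is read from them.

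The cells at 10 or more differed in make-up between gates. *ISG15* stood at 1632 and 1624 CPM in such cells of the POU5F1 gate, 1758 and 1485 CPM in the GABRP gate, 1677 and 1669 CPM in the TP63 gate and 2075 and 2017 CPM in the COL3A1 gate. The POU5F1 and GABRP values overlapped. *IFI6* was at 262 and 457 CPM in such cells of the POU5F1 gate against 1239 and 1353 CPM in the GABRP gate, and *ISG12(A)* at 211 and 379 CPM against 708 and 876 CPM. *ISG15* made up 64.7% and 55.8% of the summed UMIs of these cells in the POU5F1 gate, 50.3% and 50.1% in the COL3A1 gate, 39.4% and 33.1% in the GABRP gate and 37.1% and 37.4% in the TP63 gate. *ISG12(A)* made up 6.30% and 7.32% in the COL3A1 gate against 15.9% and 19.5% in the GABRP gate. The POU5F1 values rest on 14 and 25 cells and the COL3A1 values on 20 and 18.

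The genes were found in the same cells more often than their separate shares give. For each of the 36 pairs, the number of cells with a UMI of both was divided by the number that the product of the shares gives. The median over pairs was 2.03 ± 0.00707 (SD, n = 2 libraries), from 1.17 to 14.9. Deep cells show more of every gene, and with all cells at 9805 UMIs the median was 3.49 ± 0.150, from 1.48 for *IFI6* with *IRF7* to 23.8 for *IFI44* with *MX2*, a pair that rests on 6 and 10 cells. *ISG15* and *IFI6* were found together in 657 and 676 cells at this depth, and *IFI6* was present in 49.4% and 48.7% of cells with *ISG15* but in 22.2% and 22.8% of cells without it. In the POU5F1 gate 39 and 71 cells had both, 1.20 and 1.25 times the product. In the GABRP gate 127 and 133 cells had both, 2.03 and 1.98 times the product. In the TP63 gate 81 and 61 cells had both, 1.91 and 2.26 times the product. In the COL3A1 gate 25 and 19 cells had both, 2.68 and 3.62 times the product, from the fewest cells. The ratio can rise further where the genes are found in fewer cells, so it is not ranked between gates, pairs or depths.

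At 9805 UMIs, 5 or more of the 9 genes were found in 4.10% and 3.95% of cells, in 0.585% and 0.752% of the POU5F1 gate, 6.22% and 5.71% of the GABRP gate, 5.77% and 6.10% of the TP63 gate and 2.11% and 2.66% of the COL3A1 gate. Among cells at 10 or more summed UMIs, *ISG15* was found in 99.6% and 99.6%, *IFI6* in 88.6% and 88.02%, *IFITM3* in 85.7% and 86.6% and *ISG12(A)* in 81.9% and 83.8%. *IRF9* was found in 54.00% and 53.5%, *MX1* in 36.1% and 39.5%, *IRF7* in 32.8% and 28.1%, *IFI44* in 16.2% and 18.2% and *MX2* in 4.54% and 5.39%. Over cells, the log-normalized level of a gene correlated with the sum of the other 8 at Pearson's r of 0.81 and 0.80 for *ISG15* and 0.26 and 0.24 for *MX2*, with *IRF7* at 0.38 and 0.38 and *IRF9* at 0.65 and 0.63. These are descriptions over 7369 and 8175 cells, which share a library and a depth, and cells are not replicates.

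The interferon genes that were counted had almost no UMIs, except *IFNE*. The type III genes *IFNL1* and *IFNL3* had no entry among the counted genes, so nothing is known of them here. Many of the others are alpha, delta or omega genes of 1 family, and loss of reads shared between them was not tested. Of 34 interferon genes in the files, 28 had no UMI in any cell of either library, and those other than *IFNE* had 6 UMIs in each library. These were 3 UMIs of *IFNG* in library 1, the gene of interferon gamma, and a few of interferon delta genes. *IFNE*, which codes for interferon epsilon of epithelia, had 649 and 579 UMIs. Its level was 2.82 and 2.39 CPM in the GABRP gate, 1.85 and 1.63 CPM in the TP63 gate, 0.856 and 0.695 CPM in the POU5F1 gate and 0.356 and 0.104 CPM in the COL3A1 gate, and it passed the test as higher in the GABRP gate (log2 fold 2.01, SE 0.221, edgeR adjusted p = 2.6e-05, 0.71 to 2.85 in other fits) and in the TP63 gate (log2 fold 1.10, SE 0.260, edgeR adjusted p = 0.0062). Both folds are set against a mean that includes the COL3A1 gate, where *IFNE* had few UMIs, so their size is uncertain. The TP63 gate lay below the GABRP gate in both libraries. Cells with 20 or more summed UMIs of the 9 genes held 6 and 9 UMIs of *IFNE*, 1.81 and 2.61 CPM, against 2.97 and 2.02 CPM in cells with under 3.

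For the test, counts were summed per library and gate, and each gate was set against the mean of the other 3 by edgeR's quasi-likelihood test over 18382 genes. The 4 contrasts use the same sums and are given side by side. A gene that is far higher or lower in 1 gate shifts the mean that the other gates are set against. A range in other fits is given where an alternative filter, gate, depth or tool moved the fold by over 1.5 times or to under 0.5 of its log2 value. Of 75 genes on a list of the interferon pathway other than the 9, 71 were in the files and 56 had enough counts to be tested. In the POU5F1 gate 5 were higher and 38 lower (25.3% and 27.3% of all genes tested), with a median log2 fold of -0.58 against -0.02 over all genes. In the GABRP gate 28 were higher and 6 lower (23.7% and 17.5% of all genes), with a median of 0.40. In the TP63 gate 18 were higher and 8 lower (19.7% and 18.1%), with a median of 0.28. In the COL3A1 gate 18 were higher and 17 lower (28.4% and 27.9%), with a median of -0.06. In either direction 52.6%, 41.2%, 37.8% and 56.4% of all genes were called for POU5F1, GABRP, TP63 and COL3A1. With gates set at 1 UMI, the pathway genes higher and lower were 3 and 29 for POU5F1, 15 and 4 for GABRP, 9 and 3 for TP63 and 16 and 7 for COL3A1. With thinned cells those of COL3A1 were 16 and 10. Fewer of all genes were called in these fits too. The list was drawn up with the levels of the 9 genes known, so its counts are no independent support.

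**Figure D3:**
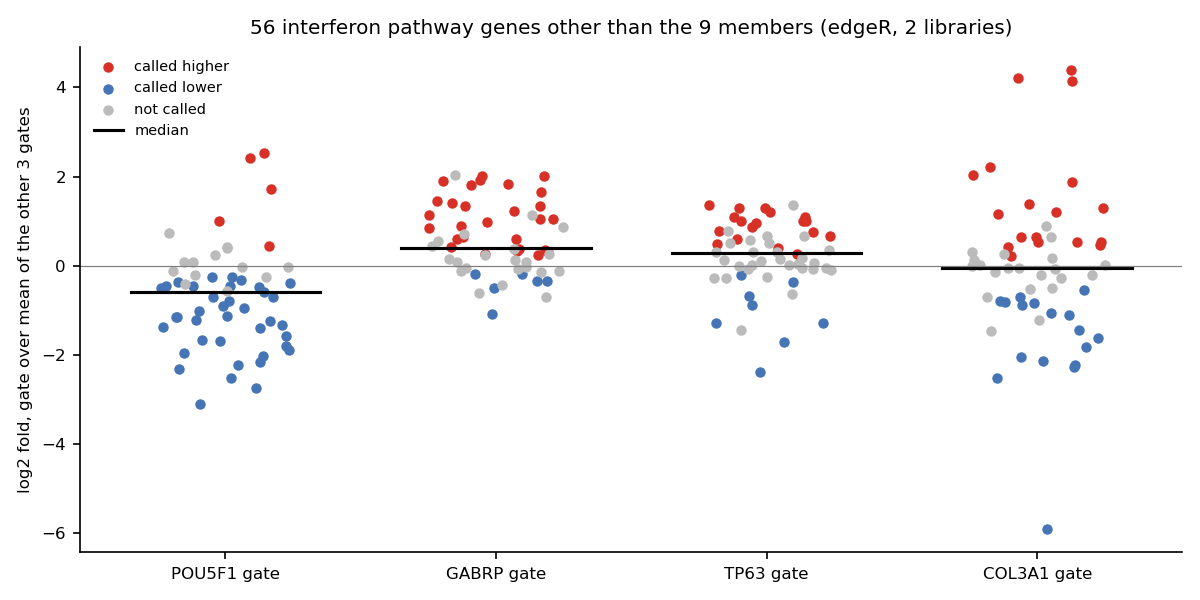
Log2 fold of 56 interferon pathway genes in each gate over the mean of the other 3 (vertical axis) for the 4 gates (horizontal axis), 1 point per gene, red where higher and blue where lower at an edgeR adjusted p below 0.05, grey where not called, with the median as a black line. Most points of the POU5F1 gate lie below 0 and its median is -0.58. The lowest point of the COL3A1 gate is *PSMB8*, which had no UMI there, so its fitted value has no meaning as a fold.

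Among the receptors, *IFNAR1* and *IFNAR2*, which form the type I receptor, were lowest in the POU5F1 gate. *IFNAR1* stood at 4.60 and 4.39 CPM there, 11.3 and 10.5 CPM in the GABRP gate, 10.6 and 8.40 CPM in the TP63 gate and 18.4 and 18.6 CPM in the COL3A1 gate (log2 fold -1.59, SE 0.0947, edgeR adjusted p = 1.5e-07 for POU5F1). *IFNAR2* was lower in the POU5F1 gate (log2 fold -1.16, SE 0.0935, edgeR adjusted p = 1.5e-06) and higher in the COL3A1 gate, with 88.5 and 77.3 CPM (log2 fold 1.87, SE 0.0858, edgeR adjusted p = 6.2e-09). *IFNGR1*, the ligand-binding chain for interferon gamma, was at 68.3 and 50.8 CPM in the COL3A1 gate against 3.03 and 2.72 CPM in the POU5F1 gate (log2 fold 4.20, SE 0.110, edgeR adjusted p = 7.3e-11). *IFNGR2*, its partner chain, was at 0.599 and 0.552 CPM in the POU5F1 gate and 6.01 and 4.35 CPM in the GABRP gate (log2 fold -3.11, SE 0.263, edgeR adjusted p = 2.1e-06, -3.80 to -2.62 in other fits). The type III receptor chain *IFNLR1* did not pass the test in the POU5F1 gate (log2 fold 0.24, SE 0.134, edgeR adjusted p = 0.15, -0.31 to 0.27 in other fits), was higher in the GABRP gate (log2 fold 0.85, SE 0.131, edgeR adjusted p = 0.00032) and the TP63 gate (log2 fold 0.95, SE 0.139, edgeR adjusted p = 0.00026) and lower in the COL3A1 gate (log2 fold -2.04, SE 0.204, edgeR adjusted p = 4.8e-06, -2.06 to -1.46 in other fits). *IL10RB*, shared by type III interferons and interleukin 10, was lower in the POU5F1 gate (log2 fold -1.24, SE 0.196, edgeR adjusted p = 0.00026).

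All 5 signal transducers tested, among them the kinases *JAK1*, *JAK2* and *TYK2*, were lower in the POU5F1 gate, as were 4 of 5 genes listed for sensing foreign RNA or DNA, 5 of 6 receptors and 18 of 26 effectors, beside 27.3% of all genes. The list for sensing also holds *MAVS* and *TBK1*, which act after the sensors. *IFI44L*, a relative of *IFI44*, stood at 1.14 and 1.98 CPM there against 10.97 and 11.8 CPM in the GABRP gate and 10.2 and 10.8 CPM in the TP63 gate. The largest falls in the POU5F1 gate after *IFNGR2* were those of *IFIT1* (log2 fold -2.75, SE 0.336, edgeR adjusted p = 3.9e-05), whose product binds viral RNA, and *IFIT3*. *IFIT1* was at 0.143 and 0.368 CPM in the POU5F1 gate, 1.17 and 0.755 CPM in the GABRP gate and 0.508 and 0.620 CPM in the TP63 gate, and the far higher COL3A1 gate (9.04 and 9.14 CPM) is in the mean of the others. *IFIT3* was called from 1 and 3 UMIs, and no fold is given. A few genes went the other way. *HERC5*, the ligase that joins ISG15 to proteins in humans, was at 107 and 111 CPM in the POU5F1 gate and 45.3 and 48.6 CPM in the GABRP gate (log2 fold 1.71, SE 0.0572, edgeR adjusted p = 2.7e-09). *LY6E*, a membrane-anchored protein, was higher there too, with 27.97 and 29.2 CPM against 3.10 and 3.27 CPM in the TP63 gate (log2 fold 2.42, SE 0.163, edgeR adjusted p = 3.6e-07, 1.57 to 3.10 in other fits). *PSMB8*, an immunoproteasome subunit, was called higher from 10 and 15 UMIs, against a mean that includes the COL3A1 gate with 0 UMIs, so no fold is given.

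In the GABRP gate the largest rises after *IFNE* were in *PARP14* (log2 fold 2.00, SE 0.318, edgeR adjusted p = 0.00039, 1.14 to 2.03 in other fits) and *SP110* (log2 fold 1.92, SE 0.326, edgeR adjusted p = 0.00062), from at most 74 UMIs in a sum. *IFNGR1* (log2 fold -1.10, SE 0.143, edgeR adjusted p = 8.9e-05), *IRF1* (log2 fold -0.50, SE 0.130, edgeR adjusted p = 0.0093) and *SOCS1*, an inhibitor of JAK kinases (log2 fold -0.34, SE 0.112, edgeR adjusted p = 0.03, -0.63 to -0.02 in other fits), were lower. *IRF1*, a transcription factor induced by interferon gamma, was higher in the POU5F1 gate (log2 fold 1.00, SE 0.115, edgeR adjusted p = 2.4e-05), at 11.4 and 9.18 CPM, and this level is in the mean the GABRP gate was set against. It was at 4.62 and 3.72 CPM in the GABRP gate, which overlapped the 5.50 and 4.45 CPM of the TP63 gate, and at 5.12 and 4.88 CPM in the COL3A1 gate. For *IFNGR1* and *SOCS1* the mean of the other gates includes the far higher COL3A1 gate. *IFNGR1* was at 3.93 and 3.41 CPM in the GABRP gate, above the 3.03 and 2.72 CPM of the POU5F1 gate and overlapping the 3.70 and 3.38 CPM of the TP63 gate. *SOCS1* was at 24.8 and 24.1 CPM in the GABRP gate, above the 13.8 and 13.9 CPM of the POU5F1 gate and the 10.5 and 7.50 CPM of the TP63 gate. In the TP63 gate *IFI44L* (log2 fold 1.37, SE 0.194, edgeR adjusted p = 0.00022), *BST2*, a protein that tethers budding virus (log2 fold 1.29, SE 0.157, edgeR adjusted p = 6.9e-05), and *IFITM1* (log2 fold 1.29, SE 0.148, edgeR adjusted p = 4.4e-05) rose most, while *SOCS1* (log2 fold -2.39, SE 0.140, edgeR adjusted p = 2.7e-07), *LY6E* (log2 fold -1.71, SE 0.245, edgeR adjusted p = 0.00024) and *IFNGR1* (log2 fold -1.30, SE 0.159, edgeR adjusted p = 7.3e-05) had the lowest values, those of *SOCS1* and *IFNGR1* again set against a mean with the COL3A1 gate in it and that of *LY6E* against a mean with the higher POU5F1 gate in it.

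The COL3A1 gate had a mixed pattern. *SOCS1* was at 287 and 307 CPM against 24.8 and 24.1 CPM in the GABRP gate (log2 fold 4.39, SE 0.0942, edgeR adjusted p = 1.9e-11), and *IFIT1* was at 9.04 and 9.14 CPM against 1.17 and 0.755 CPM (log2 fold 4.14, SE 0.234, edgeR adjusted p = 3.5e-08, 3.38 to 4.16 in other fits). All 3 negative regulators tested and 5 of 6 receptors were higher, while 10 of 26 effectors were lower and 4 higher, beside 28.4% of all genes higher and 27.9% lower. Among the lower ones, *HERC6* fell (log2 fold -2.27, SE 0.348, edgeR adjusted p = 0.00017, -3.57 to -1.47 in other fits) with 10 and 4 UMIs in its sums, and *IFNE* was called lower with 5 and 1 UMIs. *PSMB8* was called lower with no UMI in either COL3A1 sum, where the other gates had 2 to 15 UMIs a sum. Fibroblast markers other than *COL3A1*, on which the gate was set, summed to 2529.6 and 2377 CPM in this gate and to 14.8 to 42.01 CPM in the others.

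Pathway genes were also set beside the summed level of the 9 genes per cell. Cells with 20 or more summed UMIs at 9805 UMIs numbered 338 and 352, and cells with 0 numbered 3377 and 3683. *B2M*, the light chain of class I antigens, stood at 309 and 327 CPM in the first and 24.98 and 19.2 CPM in the second. *DDX58*, which codes for the RNA sensor RIG-I, stood at 53.1 and 64.6 CPM in the first and 3.93 and 3.90 CPM in the second. Both genes were higher in the first group in each library. *IFI44L* stood at 146 and 146 CPM in the cells with 20 or more and at 0.362 and 0.277 CPM in those with 0. The receptor *IFNAR1* was at 11.8 and 13.04 CPM in the cells with 20 or more and 11.8 and 9.64 CPM in those with 0, and the kinase *JAK2* at 35.3 and 34.2 CPM and at 38.7 and 36.1 CPM.

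Against cells with under 3 summed UMIs, 30 of 61 pathway genes with a UMI count to compare were at least 2-fold higher in both libraries in the cells with 20 or more. Of all genes other than the 9, 1.26% were at least 2-fold higher and 9.18% at least 2-fold lower. These are genes with over 3 UMIs in the cells with under 3 in both libraries. A sparse gene can have 0 UMIs in the far fewer cells with 20 or more, so no fall is read from the share lower. The 3 pathway genes counted as at least 2-fold lower, *MB21D1*, *TLR3* and *ISG20*, had 0 UMIs in the cells with 20 or more and 4 to 11 UMIs a library in the cells with under 3, so no fall is read from them. The ratio was 29.7-fold and 24.8-fold for *USP18*, which removes ISG15 from proteins, 99.3-fold and 87.6-fold for the RNA sensor *DHX58* and 3.93-fold and 4.19-fold for *EIF2AK2*, the kinase PKR. It was 0.898-fold and 1.14-fold for *IFNAR2*, 0.957-fold and 0.868-fold for *JAK1*, 1.14-fold and 0.826-fold for *TYK2* and 0.791-fold and 0.723-fold for *SOCS1*. Of the other receptors, *IFNGR1* was at 0.507-fold and 0.461-fold, from 17 and 11 UMIs in the cells with 20 or more. *IFNGR2* was at 1.42-fold and 1.44-fold, *IL10RB* at 1.33-fold and 1.37-fold and *IFNLR1* at 1.05-fold and 0.635-fold, also from few UMIs. *STAT2*, which binds IRF9, was at 1.22-fold and 2.10-fold. Of other antiviral effectors, *OAS1* was at 42.1-fold and 56.8-fold and *IFIT1* at 7.39-fold and 5.74-fold, and *IFIT3* had 14 and 15 UMIs in the cells with 20 or more against 1 and 3 in the far more numerous cells with under 3. *IFIT2* had 0 and 1 UMIs and *RSAD2* 1 and 3 UMIs in the cells with 20 or more. Of the gate genes, *POU5F1* was at 0.361 and 0.337 of the level in cells with under 3, *COL3A1* at 0.633 and 0.629, *GABRP* at 1.05 and 1.39, and *TP63* at 1.22 and 1.502. Fibroblast markers summed to 254 and 179 CPM in the cells with 20 or more and to 477 and 302 CPM in those with 0, and their part in the result was not tested. Blood cell markers summed to 4.83 and 3.48 CPM in the cells with 20 or more and to 4.14 and 4.62 CPM in those with 0, and the median UMI count before thinning was 29099 and 26593 against 29945 and 27523.

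**Figure D4:**
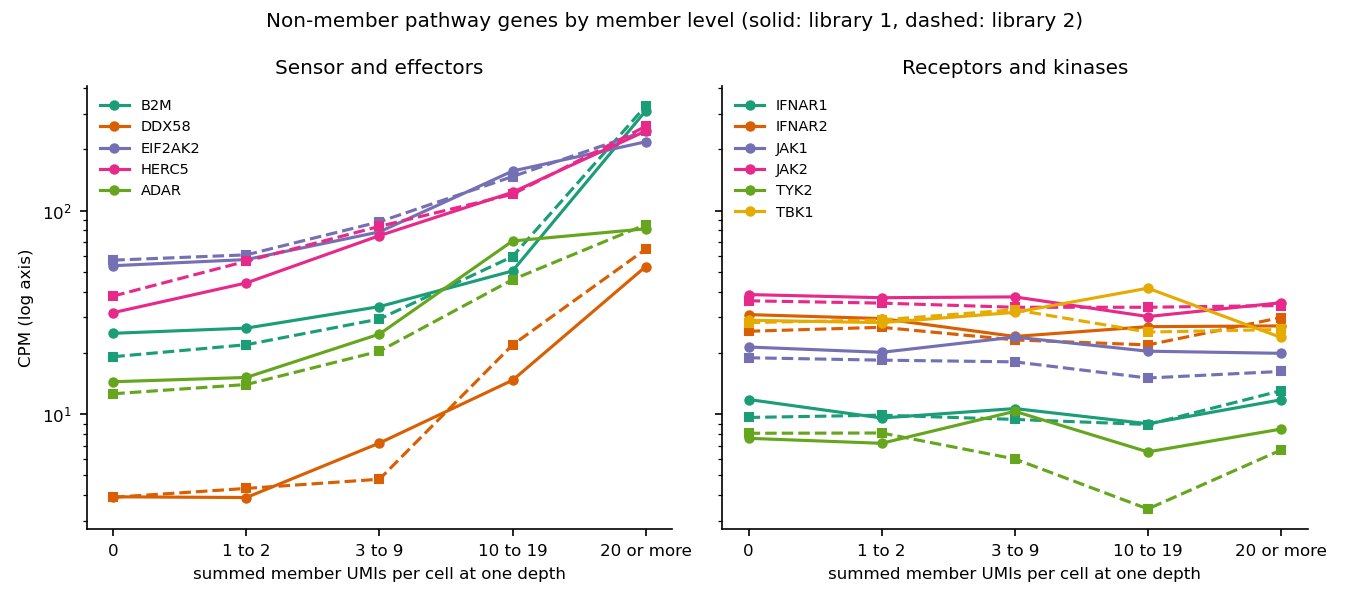
Levels of pathway genes that are not among the 9, in CPM on a log axis, for cells grouped by the summed UMIs of the 9 genes at 9805 UMIs per cell (horizontal axis), with solid lines for library 1 and dashed lines for library 2. On the left, *B2M*, *DDX58*, *EIF2AK2*, *HERC5* and *ADAR* are highest in the last group, where *B2M* reaches 309 and 327 CPM, while on the right *JAK2* is at 35.3 and 34.2 CPM in the last group and 38.7 and 36.1 CPM in the first.

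Over 16601 other genes with a UMI in at least 1% of cells of both libraries, those whose log-normalized level followed the sum of the 9 genes most closely were ranked by the smaller of the 2 libraries' Pearson's r. The first was LOC100626247, annotated as like *IFITM1* (0.78 and 0.78 in libraries 1 and 2). Sharing of reads with *IFITM3* was not tested. Then came *IFI44L* (0.75 and 0.74), *LGALS3BP*, a secreted glycoprotein (0.69 and 0.67), *IFITM1* (0.61 and 0.60), *DHX58* (0.56 and 0.56), *EPSTI1* (0.56 and 0.55), *BST2* (0.58 and 0.55) and *PARP9* (0.53 and 0.52). Others of the first 20 were *B2M*, *ZC3HAV1*, *HERC5*, LOC100519082 (annotated as *IFITM1*), *DTX3L*, *USP18*, *EIF2AK2*, *ADAR*, *HERC6*, *DDX58* and *OAS1*, down to 0.37. The median r over all ranked genes was -0.01. Of 50 listed pathway genes that could be ranked, 16 were among the first 20. As above, these are descriptions over cells of 2 libraries.

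In pESCs, the bulk libraries gave levels as FPKM, fragments scaled to transcript length and library size, here summed over the transcripts of a gene. *IFITM3* had the highest level of the 9, with 42.03 FPKM in the library IVFP25, 36.2 in PAP25 and 23.4 in PA_4P7 (mean 33.9 ± 9.53 FPKM, SD, n = 3). *ISG12(A)* had 17.3 FPKM in the library IVFP25, 6.66 in PAP25 and 9.49 in PA_4P7 (mean 11.15 ± 5.50 FPKM, SD, n = 3). *IFI6* had 8.01, 2.94 and 5.89 FPKM in the same order, and *ISG15* 5.11, 3.57 and 3.92 FPKM (mean 4.199 ± 0.809 FPKM, SD, n = 3). IVFP25 was the highest library for these 4 genes, and the ranges of *IFI6* and *ISG15* overlapped. By mean the order was *IFITM3*, *ISG12(A)*, *IFI6*, *ISG15*, *MX1*, *IRF7*, *IRF9*, *MX2* and *IFI44*. Among neighbours in this order, the ranges over the 3 libraries overlapped for *ISG12(A)* and *IFI6*, *IFI6* and *ISG15*, *ISG15* and *MX1*, *MX1* and *IRF7*, and *MX2* and *IFI44*. Some genes further apart overlapped too, such as *MX1* and *IRF9*. Within each library *ISG12(A)* was above *IFI6*. *MX2* was above *IFI44* in IVFP25 and PAP25, and both were listed at 0 in PA_4P7. The other overlapping neighbours did not keep 1 order in all 3 libraries.

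*MX1* had the widest ratio between libraries among the genes above 0 in all 3, with 7.61 FPKM in the library IVFP25, 3.19 in PAP25 and 0.219 in PA_4P7, so that its mean (3.67 ± 3.72 FPKM, SD, n = 3) stands for none of the libraries. *MX2* was at 0.113 FPKM in IVFP25 and 0.162 FPKM in PAP25 and was listed at 0 in PA_4P7, and *IFI44* was listed at 0 in IVFP25 and PA_4P7 with 0.0245 FPKM in PAP25. *IRF7* had 4.39, 2.84 and 2.42 FPKM, summed over 3 transcripts, and *IRF9* had 1.15, 2.12 and 1.16 FPKM. Of the 9 genes, 6 reached 1 FPKM in all 3 libraries, as did 37.0% of all symbols and 28 of 70 pathway genes. The sum of the 9 was 85.7 FPKM for IVFP25, 57.7 for PAP25 and 46.5 for PA_4P7.

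Of the genes that followed the 9 most closely in blastoid cells, *IFI44L* had 0.0349, 0.0125 and 0.101 FPKM and *LGALS3BP* 0.661, 1.26 and 0.651 FPKM in pESCs. *HERC5*, high in the POU5F1 gate, had 38.4, 33.7 and 95.6 FPKM. Receptor genes were present, with 1.79, 1.93 and 1.70 FPKM for *IFNAR1* and 3.35, 5.14 and 4.28 FPKM for *IFNAR2*, while *IFNGR2* was at 0.0182, 0.0577 and 0 FPKM. *IFNE* had 0.121, 0.183 and 0.124 FPKM, and *IFNB1*, *IFNK* and *IFNG* were listed at 0 in all 3. The pluripotency gene *POU5F1* had 639, 432 and 506 FPKM. The feeder cells are of another species, and of the fibroblast markers *COL1A1* was at 4.47, 3.92 and 3.604 FPKM and *COL1A2* at 1.37, 2.31 and 1.93 FPKM, while *COL3A1*, *DCN*, *LUM*, *POSTN* and *PDGFRB* were under 1 FPKM in each library. The part of feeder RNA in these values was not tested. In bulk RNA, fewer cells that carry a gene and less of it per cell cannot be told apart. FPKM and CPM were not set against each other, and the depth of the bulk libraries is unknown.

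**Figure D5:**
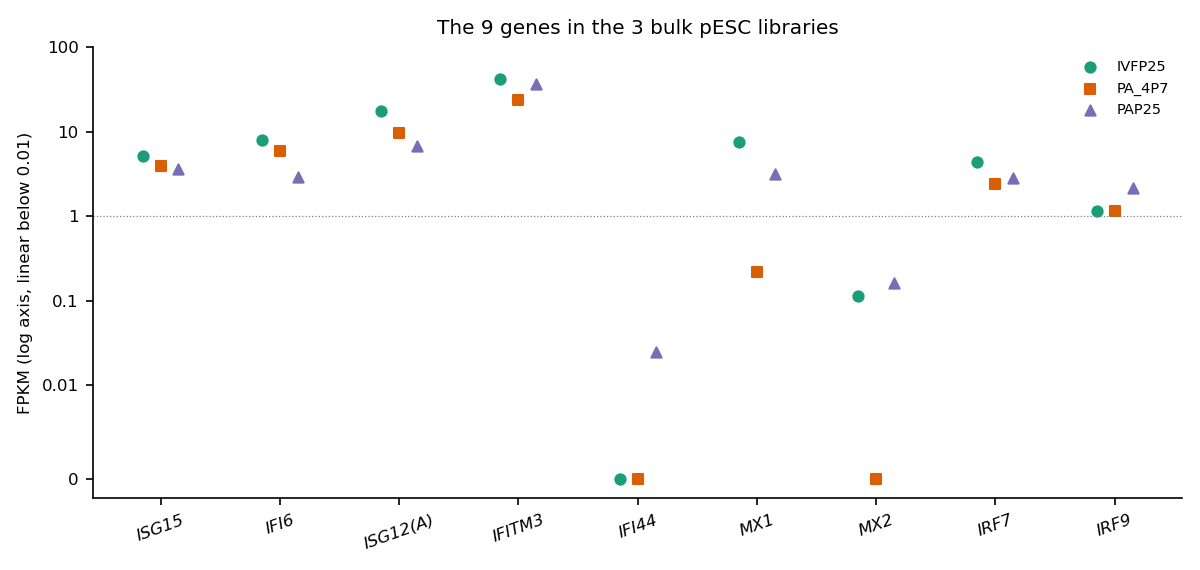
Levels of the 9 genes in the 3 bulk pESC libraries in FPKM, summed over transcripts (vertical axis, log scale that turns linear below 0.01; dotted line at 1 FPKM), with 1 point per library. *MX1* runs from 0.219 to 7.61 FPKM, and *IFI44* and *MX2* lie under 1 FPKM in every library.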

How the data were processed

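For scRNA-seq, the authors mapped reads to susScr11 with Cell Ranger 7.1.0, and deposited raw UMI counts per gene for each barcode. For bulk RNA-seq, the authors used Trim Galore 0.6.4, HISAT2 2.2.1 and StringTie 2.2.1, and the deposited values are FPKM per RefSeq transcript, with no read counts. The library columns of the FPKM table carry no replicate number, and 1 name begins with IVF while the methods describe parthenogenetic blastocysts. Library totals over all barcodes were 289452283 and 302211552 UMIs, of which 87.8% and 87.7% were in cells. The UMI limits drop cells with little RNA, and no filter on mitochondrial share was used in the values reported. No doublet caller was run. Cells with 3 UMIs of several gate genes were left out of the gates, and the 6% of cells with the most UMIs were left out in an alternative.

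The members and lists were chosen with earlier results of these data known. Members are named in full. Of the pathway list the text names the 3 genes with the largest fold in each direction per gate, ligands and receptors, and the 20 genes most alike, of which 1 is not reported here. Other pathway genes were named after their values were seen. FPKM of the transcripts of a symbol were added. Cells were thinned to 9805 UMIs without replacement (seed 42). Levels over cells were log-normalized (counts over cell total times 10000). UMIs were summed per library for the 4 gates and the ungated cells (10 sums) and compared by edgeR 4.0.16 in R 4.3.3 (quasi-likelihood, filterByExpr, TMM, Benjamini-Hochberg over all genes, threshold 0.05), with gate genes left out. Sums of a library share it, and their deviations from the gate means correlated at 0.0808 to 0.257 over 10 pairs of gates and 18386 genes, so the library pairs the sums. It is a block in an alternative. On simulated data for the POU5F1 contrast with 17942 genes, 161 of 200 genes changed 2-fold were recovered (80.5%) and 5 unchanged genes were called. The simulation gave all genes the same dispersion, had no library effect and changed few genes, so these figures may not hold for the data. Alternatives used DESeq2 1.42.0, its size factors, other UMI limits, filters, thinned cells and single libraries. Promoters were read from RefSeq's Sscrofa11.1 with pysam 0.24.0. Python 3.11.15, numpy 2.4.6, scipy 1.17.1 and pandas 2.3.3 did the rest. Embryo data, PCR values and images were not analysed here.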

Additional observations from a re-analysis of the deposited data

Results flagged for a closer look

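Barcodes between 1000 UMIs and the cell limit (3108 and 3661 in libraries 1 and 2) enter no comparison, and they held the 9 genes at a summed level of 257 and 308 CPM, from 3090 and 3969 UMIs. They were looked at since their counts are above the 3 counts that a level of 0 allows. The level is below that of cells (338 and 334 CPM) and of empty droplets (498 and 496 CPM), and was not tested.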

How the results depend on the processing

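Of 86 alternative values of the compared results, 75 kept their size within the limits set and 11 moved. In the gate tests only the number called in either direction was compared, so direction was not judged. With DESeq2 the genes called for POU5F1 were 4222 higher and 4189 lower, against 4657 and 5013 in the reported fit. For TP63 they were 2956 and 3029, against 3623 and 3321. The pathway genes called for POU5F1 with DESeq2 were 4 higher and 35 lower. All 9 genes were lower in the POU5F1 gate than in the GABRP and TP63 gates under each of the 8 alternatives, single libraries included. In the reported setting 18.8% of all genes with at least 10 UMIs in the gates had this pattern without overlap of libraries. The alternatives reuse the same cells and the genes were listed with these levels known, so nothing is read from the repeat. The number of the 9 genes lower in the POU5F1 than in the COL3A1 gate by mean was 5, and ranged from 4 to 7 with 1 library. With 1 UMI in place of 3 for a gate, the genes called were 6275 for POU5F1 (reported fit 9670), 3923 for GABRP (7578) and 3606 for TP63 (6944), and the pathway genes called were 19 for GABRP, 12 for TP63 and 23 for COL3A1, of which 16 higher and 7 lower in the last. With thinned cells the COL3A1 gate had 16 higher and 10 lower. With the library as a replicate block the genes called for POU5F1, GABRP, TP63 and COL3A1 were 10946, 9063, 8250, 11130, and the pathway genes called 45, 37, 29, 35, within 1.5 times the reported counts. With 1 library no edgeR test could be fitted, since no residual degrees of freedom remain. Cells with 6 or more of the 9 genes were 5.57% as counted, 2.204% with thinned cells, 2.84% when 2 UMIs were asked for, 4.96% without the 6% deepest cells, and 5.28% to 5.86% with 1 library. The median ratio over pairs was 3.49 with thinned cells and 5.03 from 2 UMIs, and 2.02 to 2.03 with 1 library. For the values that moved, the cause was not tested. Members at 1 FPKM in every pESC library numbered 6 to 7 with 1 library left out, the latter without PA_4P7, where *MX1* then passes. Of 378 alternative values of single genes, 261 moved by less than the spread between replicates. The mitochondrial filter changed gate levels to 0.920 to 1.01 times the reported ones, while *MX2* and *IFI44*, with few UMIs, moved most.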
